A study of Mus musculus with 40 samples.

Results

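Control OPC cultures from the telencephalon and the brainstem were compared for where H3K27me3 lies on the autosomes. The comparison used the H3K27me3 peak lists of all 5 control cultures, 3 from the telencephalon (numbered 59, 60 and 61) and 2 from the brainstem (59 and 61), out of 20 histone peak lists in the study. Of 20807 autosomal protein-coding genes, 17 had a promoter peak in 3 of 3 telencephalon controls and in 0 of 2 brainstem controls, which is 0.0817% of the genes. Another 59 genes (0.284%) had a promoter peak in 2 of 2 brainstem controls and in 0 of 3 telencephalon controls. These genes were chosen on the peaks themselves, so their presence in the control H3K27me3 lists is a description and carries no test.

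OPCs, the precursors of myelinating oligodendrocytes, came from hGFAP-Cre;K27M litters (AMGFAP-Cre;K27M in the labels) at postnatal day 5 to 7. Each culture combined tissue from littermates of one genotype, taken either from the brainstem or from the dorsal telencephalon, which is labelled cortex but also includes hippocampus and corpus callosum. Cells were immunopanned with an antibody against PDGFRa and kept in proliferation medium without differentiation. Controls were littermates labelled Control, whose exact alleles the labels do not give. K27M mice carry the K27M mutation in their own *H3-3a* gene behind a stop cassette, which Cre driven by the human GFAP promoter removes in neural stem and progenitor cells. H3K27me3 peaks of the 5 K27M cultures with the same numbers and H3K4me3 peaks of the 5 controls served as readouts that the choice of genes did not use. Each culture stands for a pool of animals, so spread between cultures is not spread between single mice, and cells of the same region still mix the OPCs of several structures.

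H3K27me3 is laid down by the Polycomb repressive complex PRC2 and marks silenced developmental genes, often as domains that run over a whole gene and its surroundings. H3K4me3 marks active and poised promoters. Transcription factors that pattern the neural tube along its length, such as *Emx2* in the telencephalon and the 3' *Hox* genes and several *Irx* genes further back, are well-known Polycomb targets, silenced where they are not used.

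The bases just upstream of a transcript start are shown for 4 telencephalon-only patterning genes and for *Insm1*, a brainstem-only gene whose promoter was covered throughout in both brainstem controls, because these promoters carry the regional difference. Each run holds 200 bases of GRCm38, the same assembly as mm10, read 5' to 3' along the gene's strand and ending at the base before an annotated start, namely the start with the best covered promoter in the marked region among those with no annotated exon in these 200 bases. A gene's promoter coverage given elsewhere is that of its best covered start, which can be another one. Capitals mark CG dinucleotides, which are dense at many Polycomb-target promoters.
Hoxa2, chr6:52164832-52165031, minus strand: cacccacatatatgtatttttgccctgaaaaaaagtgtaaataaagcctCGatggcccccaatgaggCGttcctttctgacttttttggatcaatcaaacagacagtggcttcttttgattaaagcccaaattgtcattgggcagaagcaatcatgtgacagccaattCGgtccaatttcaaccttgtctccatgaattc
Irx1, chr13:71960717-71960916, minus strand: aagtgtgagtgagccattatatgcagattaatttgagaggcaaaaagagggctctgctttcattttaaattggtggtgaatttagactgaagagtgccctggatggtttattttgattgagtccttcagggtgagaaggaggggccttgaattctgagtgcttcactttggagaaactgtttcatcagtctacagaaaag
Irx2, chr13:72628620-72628819, plus strand: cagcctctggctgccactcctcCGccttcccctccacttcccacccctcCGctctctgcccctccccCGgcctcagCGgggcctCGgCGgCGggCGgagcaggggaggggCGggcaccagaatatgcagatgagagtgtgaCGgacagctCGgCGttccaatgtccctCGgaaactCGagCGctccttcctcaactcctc
Irx5, chr8:92357425-92357624, plus strand: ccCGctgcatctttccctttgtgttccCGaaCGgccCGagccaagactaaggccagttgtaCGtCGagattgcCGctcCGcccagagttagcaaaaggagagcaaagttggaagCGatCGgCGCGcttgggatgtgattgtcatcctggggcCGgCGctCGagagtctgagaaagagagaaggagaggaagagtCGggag
Insm1, chr2:146221721-146221920, plus strand: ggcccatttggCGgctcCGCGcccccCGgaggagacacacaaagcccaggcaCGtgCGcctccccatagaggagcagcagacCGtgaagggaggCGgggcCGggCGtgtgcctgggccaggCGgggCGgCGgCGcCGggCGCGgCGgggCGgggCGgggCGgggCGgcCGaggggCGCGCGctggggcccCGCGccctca
The run upstream of *Hoxa2* held 3 CG dinucleotides, that of *Irx1* 0, those of *Irx2* and *Irx5* 15 and 16, and that of *Insm1* 28. Over the same window of the most upstream start of all 20807 genes the median was 7, with quartiles of 2 and 15. The *Irx1* run lies inside the gene, before an internal annotated start, so its count does not describe the promoter at the gene's 5' end. CG density therefore ranged widely among these runs, and both sparse and dense ones were marked in one region only. All 200 bases of the *Hoxa2*, *Irx5* and *Insm1* runs lay under H3K27me3 in every control of the marked region and in none of the other. The *Irx1* run was covered in telencephalon 59 and 60 and that of *Irx2* in telencephalon 60, since the peaks of the other telencephalon cultures were interrupted there.

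The H3K27me3 lists differed greatly in extent, and not by region. They covered 26.2, 71.4 and 106 Mb of the autosomes in telencephalon 59, 60 and 61, and 101 and 48.8 Mb in brainstem 59 and 61. Means were 67.8 Mb ± 40 (SD, n = 3) and 75 Mb ± 37.1 (SD, n = 2), with a log2 difference of -0.27 (two-sided exact permutation test, p = 0.9). Telencephalon 59 was the narrowest list, so a telencephalon-only gene had to be marked in it, and brainstem 61 was the narrower brainstem list. The Jaccard index, the share of bases in both lists over bases in either, was not higher within regions than between them. It averaged 0.342 (0.222 to 0.472) in 4 within-region pairs and 0.378 (0.216 to 0.471) in 6 between-region pairs (one-sided exact permutation test, p = 0.8). Lists of unequal length cannot reach a high index, even where the shorter lies inside the longer. The index thus also reflects list extent, and cannot decide whether lists of the same region share more positions. Only autosomes were used, because chromosome X held 25.7% and 30.3% of the covered length in telencephalon 60 and 61 against 0.995% to 1.11% in the other 3 controls. Of 10 OPC markers, 10 had an H3K4me3 promoter peak and 0 an H3K27me3 promoter peak in each control culture. H3K4me3 was present at 3 of 9 autosomal oligodendrocyte markers in each control, 0 to 1 of 10 microglia markers, 3 to 5 of 10 endothelial markers, 6 to 9 of 10 astrocyte markers and 6 to 10 of 10 neuron markers. Promoter H3K27me3 stood at 0 to 3, 0 to 4, 3 to 5, 1 to 6 and 7 to 9 of these markers, in the same order. At 7 of the 10 neuron markers it was present in all 5 controls. What part other cell types have in the results was not tested.

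The telencephalon-only genes included patterning factors that act behind the forebrain, namely *Hoxa2*, which specifies a hindbrain segment, and the Iroquois homeobox genes *Irx1*, *Irx2*, *Irx3* and *Irx5*. *Skap2*, an adaptor protein gene, lies near the HoxA cluster on chromosome 6. Its promoter was covered over 553, 1461 and 1045 bp in telencephalon 59, 60 and 61, at 5.87-, 10.2- and 5.12-fold enrichment over input. In and around *Skap2*, 30.3, 49.6 and 12.9 kb lay under H3K27me3 peaks against 0 kb in both brainstem controls. The *Hoxa2* promoter (any stretch from 2000 bp upstream to 1000 bp downstream of a start) was covered over 3000 of 3000 bp in every telencephalon control and over 0 bp in both brainstem controls. Fold enrichment at *Hoxa2* was 5.18, 19.6 and 11.6 in telencephalon 59, 60 and 61. Around *Hoxa2*, 21.5, 22.4 and 22.4 kb lay under peaks in the telencephalon against 1.85 and 0 kb in brainstem 59 and 61, so the regions did not overlap.

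*Irx2* was covered over 3000 bp in each telencephalon control at 3.59-, 11.8- and 3.84-fold enrichment, and its domain was longer than the gene. From 10 kb before the gene to 10 kb after it, 19.5, 25.4 and 23.2 kb lay under peaks in telencephalon 59, 60 and 61 and 0 kb in both brainstem controls. *Irx5* had 17.1, 27 and 22.5 kb in the telencephalon against 1.11 and 0 kb in brainstem 59 and 61. Around either gene the narrowest telencephalon list held more H3K27me3 than the brainstem 59 list, which covered 101 Mb in all. The choice of genes by promoter peaks favours such a gap, so it is a description only. *Irx1*, the neighbour of *Irx2* on chromosome 13, had 14.4, 20.8 and 10.6 kb against 1.94 and 0 kb. *Irx3*, the neighbour of *Irx5* on chromosome 8, had 8.53, 15.9 and 14.4 kb against 4.81 and 0.358 kb, the smallest gap of the 4. The remaining Iroquois genes were not regional, since *Irx4* and *Irx6* had a promoter peak in all 5 controls. *Irx4*, which sits in the same cluster as *Irx1* and *Irx2*, was covered over 3000 bp in each of them.

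**Figure D1:**
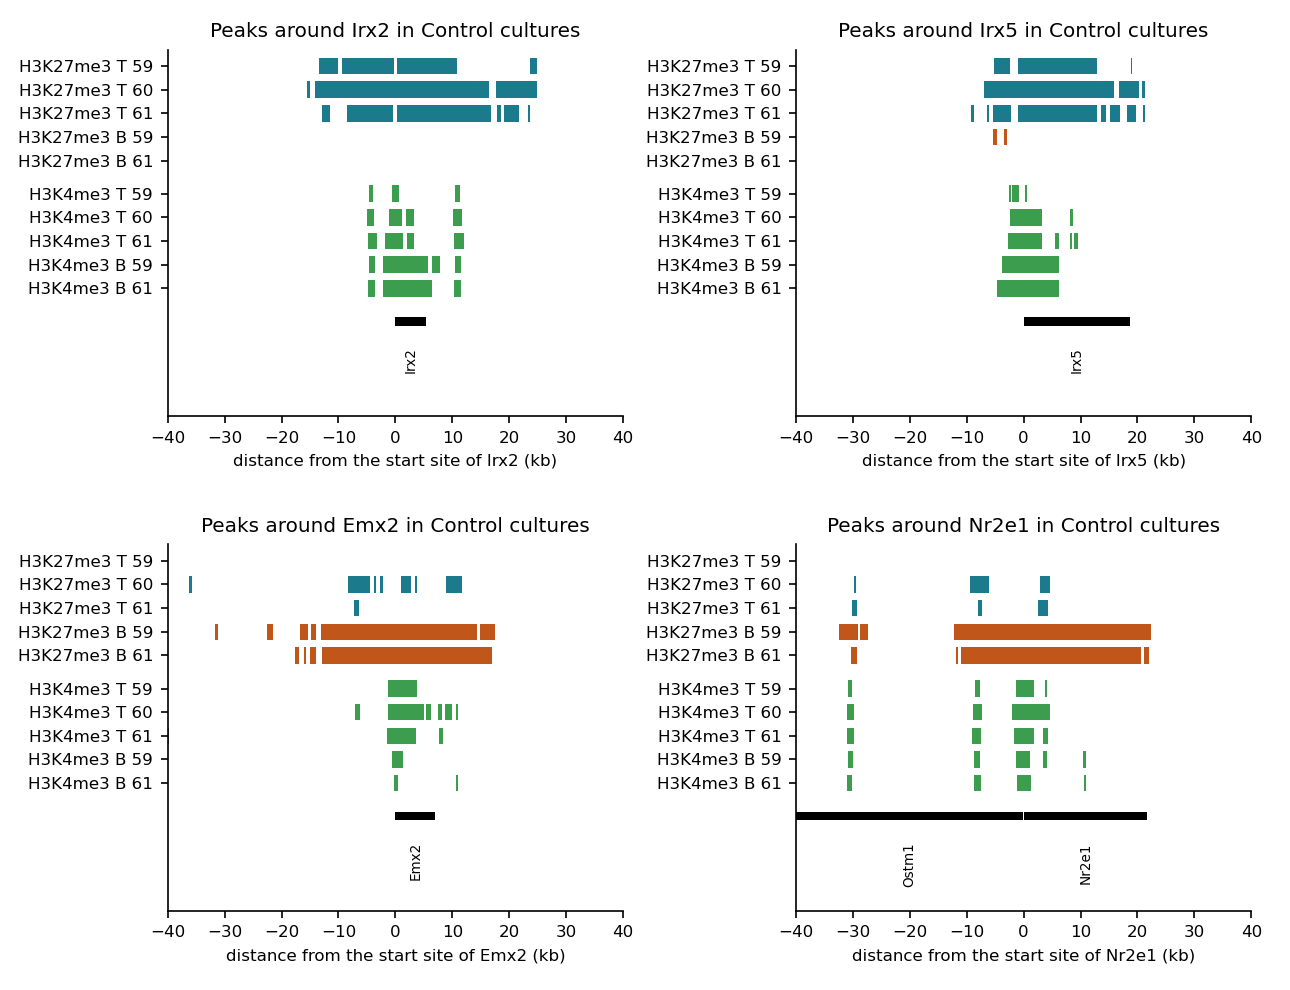
Peaks within 40 kb of the start sites of Irx2, Irx5, Emx2 and Nr2e1 in the control cultures (x axis, distance in kb along the gene; rows, H3K27me3 in teal for telencephalon and orange for brainstem, then H3K4me3 in green; black bars, protein-coding genes). H3K27me3 runs over Irx2 and Irx5 in the 3 telencephalon lists and over Emx2 and Nr2e1 in the 2 brainstem lists. H3K4me3 at the start site is broader in the other region at Irx2, Irx5, Emx2 and Nr2e1.

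The other 10 telencephalon-only genes were weaker calls. They were *Glra3*, *Akr1c14*, *Ugt2a2*, *Olfr1382*, *Gm8978*, *Cd24a*, *St18*, *Skint8*, *Olfr1284* and *Olfr1275*, include 3 olfactory receptor genes, and in 8 of 10 cases had no H3K4me3 peak in any control. Their highest fold enrichment in any telencephalon control had a median of 2.82 and a maximum of 4.74 (*Cd24a*, a cell-surface sialoglycoprotein gene), against a median of 12.4 in the other 7 telencephalon-only genes. The median promoter coverage was 1256 bp against 2702 bp. *St18*, a zinc finger factor of the oligodendrocyte lineage, was covered over 1881, 1204 and 488 bp in telencephalon 59, 60 and 61 at 2.26- to 2.72-fold. The call at *Glra3*, a glycine receptor subunit gene, rested on 36 bp in telencephalon 59. At a stricter q-value (−log10 of at least 3) the 11 telencephalon-only genes shared 7 with the 17, among them *Hoxa2*, *Irx1*, *Irx2*, *Irx3*, *Irx5* and *Skap2*, and none of these 10.

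The HoxA cluster on chromosome 6 differed between the regions over several neighbouring genes. Of its 105 kb, 104, 105 and 105 kb lay under H3K27me3 in telencephalon 59, 60 and 61, whereas 80 and 53.5 kb did in brainstem 59 and 61. H3K27me3 covered 0% of the bodies of *Hoxa2* and *Hoxa5* in both brainstem controls, against 100% in each telencephalon control. At *Hoxa3* the brainstem cultures held 73.3% and 14.5% of the body, at *Hoxa4* 92% and 0%, and at *Hoxa6* 100% and 78.9%. From *Hoxa9* to *Hoxa13* the bodies were covered over 100% in all 5 controls. Both brainstem cultures therefore lacked H3K27me3 at *Hoxa2* and held it at the *Hoxa13* end of the cluster. In between they differed, since culture 59 held it over *Hoxa4* and most of *Hoxa3* and culture 61 over little before *Hoxa6*. H3K4me3, which was not used to choose these genes, covered 1.23, 13.6 and 19.3 kb of the cluster in telencephalon 59, 60 and 61 and 29 and 41.6 kb in the brainstem. Over the body of *Hoxa2* it covered 0%, 18.4% and 32.4% in the telencephalon and 100% in both brainstem controls.

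**Figure D2:**
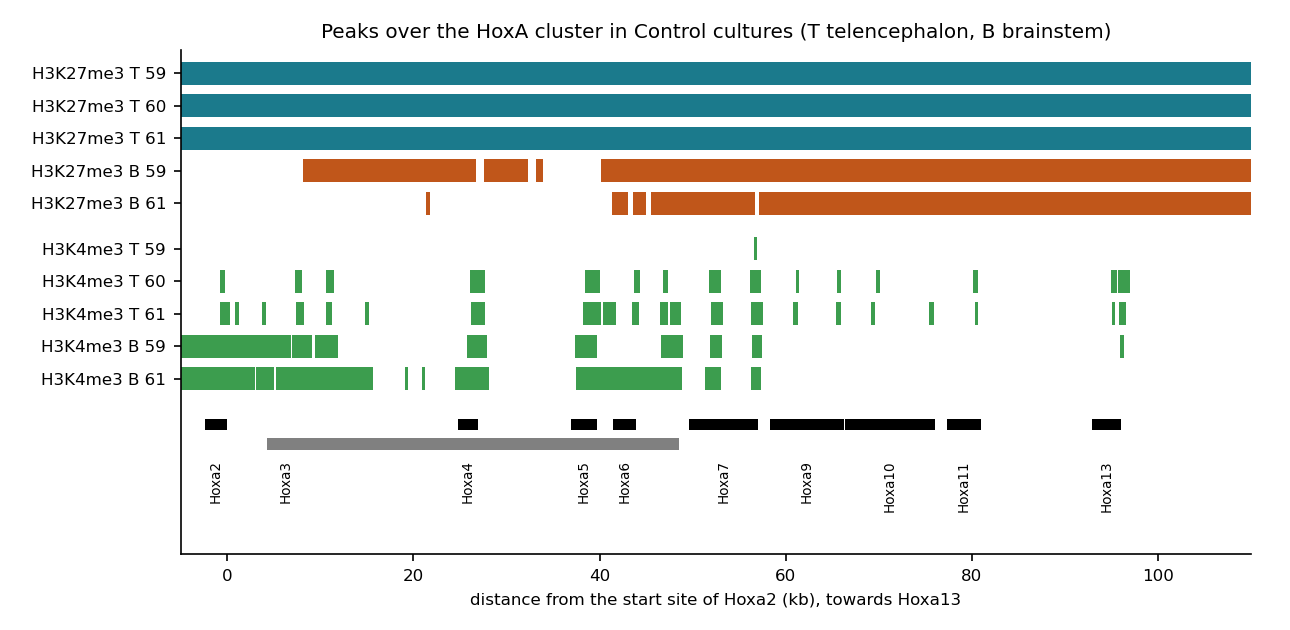
Peaks over the HoxA cluster from Hoxa2 on in the control cultures (x axis, distance in kb from the start site of Hoxa2 towards Hoxa13; rows, H3K27me3 in teal for telencephalon and orange for brainstem, then H3K4me3 in green; bars at the bottom, protein-coding genes, with the long Hoxa3 model in grey). H3K27me3 spans the plotted stretch in the telencephalon, but leaves Hoxa2 and Hoxa5 free in both brainstem lists, where H3K4me3 over Hoxa2 forms a nearly continuous block.

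The other *Hox* clusters did not show this in H3K27me3. HoxC lay under H3K27me3 over all of its 116 kb in every control. HoxD was covered over all of its 96.8 kb in 4 controls and over 79.7 kb in brainstem 61. HoxB (174 kb) was covered over 151, 173 and 174 kb in the telencephalon and over 174 and 161 kb in the brainstem, so the regions overlapped. Of 39 *Hox* genes, 36 had a promoter peak in all 5 controls. *Hoxa4* was marked in all telencephalon controls and in brainstem 59. H3K4me3 over HoxB did not overlap between the regions. It covered 0, 3.29 and 1.32 kb in telencephalon 59, 60 and 61 and 6.51 and 22.2 kb in brainstem 59 and 61. Over HoxC and HoxD the regions overlapped in H3K4me3.

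Among the brainstem-only genes, *Insm1* and *Ostm1* had promoters covered throughout in both brainstem controls. *Insm1*, a zinc finger factor of neuroendocrine and neuronal progenitors, was covered over 3000 bp at 4.15- and 4.68-fold enrichment in brainstem 59 and 61, with 10.8 and 10.7 kb around the gene against 0, 1.25 and 1.07 kb in the telencephalon.

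*Ostm1*, which encodes a subunit of a lysosomal chloride transporter, was covered over 3000 bp at 6.53- and 6.26-fold. Around *Ostm1*, 35.8 and 29.9 kb lay under peaks in the brainstem and 0.550, 12.9 and 9.94 kb in the telencephalon. It lies back to back with *Nr2e1* (Tlx), an orphan nuclear receptor of forebrain stem cells, and one domain covered both starts. *Nr2e1* was outside the rule, because its promoter was covered over 1438 and 1761 bp in telencephalon 60 and 61 at about 2.5-fold (2.50 and 2.46). Its domain nevertheless measured 32.4 and 31.5 kb in the brainstem against 0, 5.21 and 2.54 kb in the telencephalon. *Emx2*, a homeobox gene of the dorsal telencephalon, was likewise just outside, with a peak over 1241 bp in telencephalon 60. Around *Emx2*, 26.5 and 26.9 kb lay under peaks in the brainstem and 0, 9.81 and 0.726 kb in the telencephalon. *Otx1*, another forebrain homeobox gene, did not separate as clearly, with 21.4 and 20 kb in the brainstem and 4.61, 18.7 and 13.4 kb in the telencephalon.

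Most of the other brainstem-only genes were no patterning genes and had weak peaks. *Fsip1*, *Inpp5a* and *Ralgapa2* are long genes whose bodies were partly covered in every control. *Fsip1*, a sperm fibrous sheath-interacting protein gene, had 102 and 88.3 kb under peaks in the brainstem against 27.2, 41.2 and 37.4 kb in the telencephalon. *Inpp5a*, an inositol phosphatase gene, had 83.4 and 79.1 kb against 14.4, 45.4 and 33.2 kb. *Ralgapa2*, which encodes a Ral GTPase-activating protein subunit and lies beside *Insm1*, had 82.2 and 70.3 kb against 28.5, 38.3 and 32.5 kb, but only 783 and 178 bp of promoter coverage. *Dnah14*, *Hlcs*, *Mipol1*, *Lrriq1* and *Tppp3* followed in domain length, at 2.08- to 3.54-fold. *Mipol1* rested on 18 bp in brainstem 59. Outside the 8 genes counted below as marked in both brainstem K27M cultures, the 51 remaining brainstem-only genes had a median promoter coverage of 519 bp and a highest fold enrichment of 4.01. They included 8 olfactory, vomeronasal or trace amine receptor genes.

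**Figure D3:**
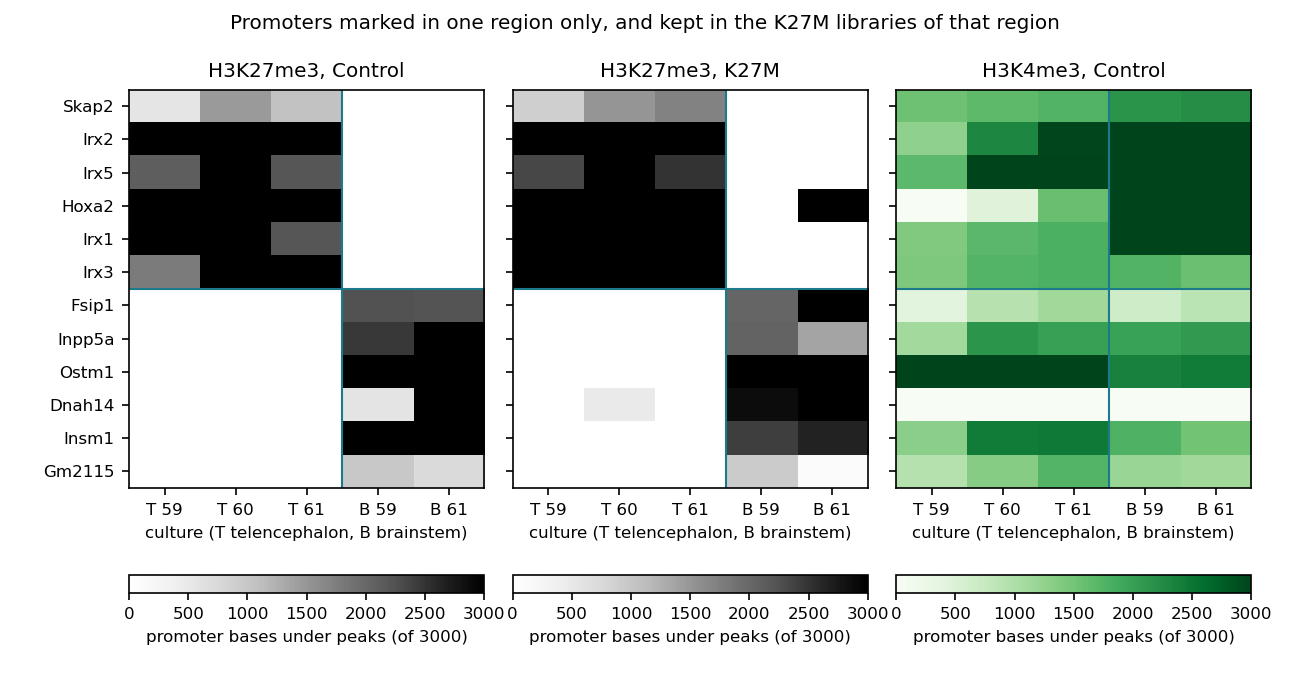
Promoter bases under peaks (0 to 3000, shading) of 6 telencephalon-only genes (above the line) and 6 brainstem-only genes (below it) that were also marked in every K27M culture of their region, in control H3K27me3, K27M H3K27me3 and control H3K4me3 lists (columns, cultures; T telencephalon, B brainstem). Control H3K27me3 gave the region-only genes, and K27M H3K27me3 of the marked region decided which of them are shown. Marks in these columns therefore follow from the choice, and region-only genes without the K27M mark are not shown. The H3K4me3 panel was not used to choose. Hoxa2 and Dnah14 also carry H3K27me3 in 1 K27M culture of the other region.

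The counts of region-only genes depended on single cultures. Without telencephalon 59 the 17 telencephalon-only genes became 202, without brainstem 59 they became 104, without brainstem 61 35, and without telencephalon 61 28. The 59 brainstem-only genes became 786 without brainstem 61, 158 without telencephalon 61, 142 without brainstem 59 and 94 without telencephalon 60. At the stricter q-value they were 11 and 25, of which 7 and 8 were among the original genes. Since these are bulk cultures, fewer cells with the mark and less of the mark in each cell cannot be told apart.

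Promoter presence misses domains that differ in length. Genes were therefore also counted whose peak length (gene and 10 kb on either side) was at least 5 kb longer in every culture of a region than in any of the other, a rule added after the data were seen. In the telencephalon direction 17 genes met it, which is 0.0817% of 20807, and in the brainstem direction 44 genes (0.211%). Of 39 *Hox* genes, 5 were longer in the telencephalon (among them *Hoxa2*, *Hoxa3*, *Hoxa5* and *Hoxa6*) and 0 in the brainstem. All 5 lie in the HoxA cluster and their windows overlap, so they are not separate domains. Of 58 hindbrain and spinal neuron identity genes, 4 were longer in the telencephalon (*Irx1*, *Irx2*, *Irx5* and *Meis1*) and 1 in the brainstem (*Nkx6-2*). Of 29 dorsal forebrain genes, 3 were longer in the brainstem (among them *Emx2* and *Nr2e1*) and 1 in the telencephalon (*Nr2f2*). None of 15 ventral forebrain, 15 midbrain-hindbrain boundary, 14 dorsal neural tube or 16 oligodendrocyte lineage genes met it in either direction. Median peak length around all genes was 0 to 0.358 kb per control. The 17 genes became 120 without telencephalon 59, 87 without brainstem 59 and 35 without brainstem 61, and the 44 became 554 without brainstem 61, 111 without brainstem 59 and 84 without telencephalon 61.

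*Nr2f2* (COUP-TFII), a nuclear receptor of caudal and ventral forebrain, had a promoter peak in all 5 controls but 33.1, 34.8 and 34.8 kb in the telencephalon against 12.7 and 18.7 kb in the brainstem. A stretch of 14.2 kb at the gene was marked in the telencephalon lists alone. *Meis1*, a Hox cofactor gene, had no H3K27me3 at its promoters in any control and 7.75, 9.75 and 9.08 kb around it in the telencephalon against 2.61 and 1.17 kb in the brainstem. *Nkx6-2*, a homeobox gene of the ventral neural tube and of oligodendrocytes, had 7.77, 12.4 and 10.1 kb in the telencephalon and 18.6 and 18 kb in the brainstem. The brainstem cultures themselves differed at other patterning genes. *Pax3*, of the dorsal neural tube, had 92.2, 97.2 and 102 kb in the telencephalon, 89.6 kb in brainstem 59 and 2.51 kb in brainstem 61. *Zic1*, a zinc finger gene of the same region, had 26.8 to 27.8 kb in 4 controls and 0 kb in brainstem 61. These genes are not regional by either rule, and are named because the 2 brainstem controls disagreed.

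**Figure D4:**
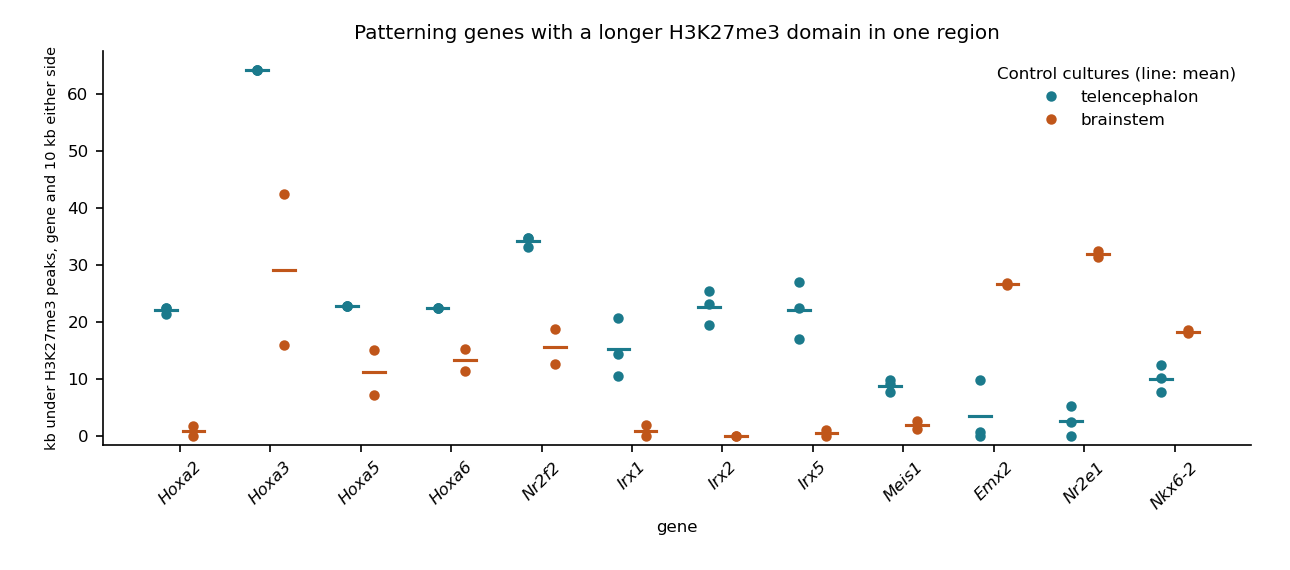
Length under H3K27me3 peaks (y axis, kb, gene and 10 kb on either side) in each control culture (points; teal telencephalon, orange brainstem; lines, means) for 12 patterning genes that met the 5 kb rule. The 3 teal and 2 orange points do not overlap for any gene, as the rule requires, and the brainstem points are apart from each other at Hoxa3.

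By stretch of genome rather than by gene, 105 telencephalon-only segments of at least 2000 bp (bases in all 3 telencephalon and no brainstem lists, joined within 1000 bp) summed to 0.478 Mb, with a median of 3.36 kb. The longest, of 24.7 kb, ran over *Hoxa2* and the end of *Hoxa3*. The next were 19.2 kb at *Irx2*, 14.2 kb at *Nr2f2*, 13.9 kb at *Irx5*, 13.5 kb at *Skap2*, 11.1 kb in *Frmd4a* and 9.89 kb at *Hlx*, a homeobox gene. Of the remaining 3 among the 10 longest, 1 lay in *Maml3*, a Notch coactivator gene, and 2 lay 81.5 kb from *Gdf6* and 265 kb from *Pfn2*, outside genes. Brainstem-only segments numbered 246 and summed to 0.932 Mb, with a median of 2.80 kb. Among the 10 longest were 20.7 kb in *Sntb2*, 17.4 kb at *Nr2e1*, 17 kb in *Ralgapa2*, 16.2 kb at *Gm32742*, 13.6 kb at *Pou2af1*, 11.8 kb in *Sntb2*, 10.7 kb at *Insm1*, 9.83 kb in *Inpp5a* and 9.11 kb in *Atxn7l1*. Protein-coding genes were overlapped by 45 of 105 and 121 of 246 segments. *Nr2e1*, *Insm1*, *Irx2* and the HoxA segment were thus among the longest. Telencephalon-only length became 2.49 Mb without brainstem 59, 2.41 Mb without telencephalon 59, 1.08 Mb without brainstem 61 and 0.787 Mb without telencephalon 61. Brainstem-only length became 14.8 Mb without brainstem 61, 4.01 Mb without brainstem 59, 2.09 Mb without telencephalon 61 and 1.59 Mb without telencephalon 60.

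The K27M cultures gave a reading of the same genes that the choice had not used. Their lists were narrower, at 12.5 to 23.1 Mb of autosome. Of the 17 telencephalon-only genes, 41.2% had a promoter H3K27me3 peak in each of the 3 telencephalon K27M cultures (the same 7 genes in all), against 8.82% ± 12.5 (SD, n = 2) in the brainstem K27M cultures. Of all 20807 genes, 6.53% to 11.7% had a peak in the telencephalon K27M lists and 10.4% and 11.4% in the brainstem ones, so the brainstem share at these genes was about that of all genes. The difference of 32.4 percentage points gave p = 0.1 in a two-sided exact permutation test, the smallest value that 10 divisions of 5 cultures allow, so no difference in this design can reach 0.05. The 7 genes included *Hoxa2*, *Irx1*, *Irx2*, *Irx3*, *Irx5* and *Skap2*, and the other 10 had a peak in none of the telencephalon K27M cultures. With the genes chosen without control telencephalon 59, 202 in number, the difference was 4.70 points. *Hoxa2* also had a peak in brainstem K27M 61, over 3000 bp. Over the HoxA cluster, K27M H3K27me3 covered 105 kb in each telencephalon culture and 79.1 and 100 kb in brainstem 59 and 61. Brainstem control 61 had 53.5 kb, so the regional gap in this cluster was much smaller in K27M culture 61. A telencephalon-only segment of 7.87 kb at *Hoxa3* and *Hoxa5* was covered over 87.4% and 100% in the brainstem K27M cultures.

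Of the 59 brainstem-only genes, 16.1% ± 1.20 (SD, n = 2) had a peak in the brainstem K27M cultures and 2.82% ± 2.59 (SD, n = 3) in the telencephalon K27M cultures, a difference of -13.3 points for telencephalon minus brainstem (two-sided exact permutation test, p = 0.1). The brainstem shares, 16.9% and 15.3%, were thus little above the 10.4% and 11.4% of all genes, and the telencephalon shares of 0% to 5.08% were below the 6.53% to 11.7% of all genes. With the 786 genes chosen without control brainstem 61 the difference was -1.06 points. The 8 genes marked in both brainstem K27M cultures included *Insm1*, *Ostm1*, *Inpp5a*, *Fsip1*, *Dnah14* and *Gm2115*. Outside the rule, *Emx2* and *Nr2e1* had 3000 bp in both brainstem K27M cultures. *Emx2* also had 3000 bp in telencephalon K27M 60 and 0 bp in 59 and 61, whereas *Nr2e1* had 0 bp in all telencephalon K27M cultures. *Pax3* and *Zic1* had no promoter peak in either brainstem K27M culture and 3000 bp in each telencephalon K27M culture. Among the brainstem cultures of both genotypes, a promoter peak at these genes was thus present in control 59 alone. CG content was also set side by side for the 15 genes marked in the K27M cultures and the rest. Upstream of the best covered start, the median was 13 CG dinucleotides in the 7 telencephalon-only genes and 1 in the other 10, and 10.5 in the 8 brainstem-only genes and 4 in the other 51. This split was made after the values were seen and was not tested.

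Promoter H3K4me3 as presence or absence did not separate the regions. Peaks stood at 51% ± 3.40 (SD, n = 3) of the telencephalon-only genes in telencephalon controls and at 50% ± 4.16 (SD, n = 2) in brainstem controls (two-sided exact permutation test, p = 1). At the brainstem-only genes the shares were 62.1% ± 0.979 and 60.2% ± 3.60 (two-sided exact permutation test, n = 3 and 2, p = 0.7). Over all genes the share was 59.8% to 66.3%, above that at the telencephalon-only genes and about that at the brainstem-only genes. The extent of H3K4me3 did not overlap between regions at some single genes, which were not tested one by one. *Emx2* had H3K4me3 over 3000 bp in each telencephalon control and over 1947 and 797 bp in brainstem 59 and 61. *Irx2* had 1269, 2298 and 2984 bp in the telencephalon and 3000 bp in both brainstem controls, and *Irx1* 1395, 1687 and 1783 bp against 3000 bp. *Insm1* had 1308, 2433 and 2450 bp in the telencephalon and 1776 and 1510 bp in the brainstem, so its regions overlapped. They also overlapped at *Irx3*, with 1414, 1730 and 1796 bp in the telencephalon against 1740 and 1566 bp. *Irx5* had 1666, 3000 and 3000 bp in the telencephalon and 3000 bp in both brainstem controls. A value of 3000 bp is the most that this measure can show. How many of all genes differ in this way was not counted.

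Inside the segments, both readouts lay apart by region, a comparison added after the data were seen. K27M H3K27me3 covered 44.7% ± 8.21 (SD, n = 3) of the telencephalon-only length in telencephalon cultures and 6.30% ± 3.06 (SD, n = 2) in brainstem cultures. In the brainstem-only length it covered 3.45% ± 4.04 and 35.3% ± 3.62. Control H3K4me3 ran the other way. It covered 2.28%, 6.41% and 7.26% of the telencephalon-only length in telencephalon 59, 60 and 61 and 14.3% and 14.5% in brainstem 59 and 61. In the brainstem-only length it covered 4.07%, 4.62% and 3.97% in the telencephalon and 1.35% and 1.12% in the brainstem. No culture of a region overlapped a culture of the other in any of the 4 comparisons, each with p = 0.1 (two-sided exact permutation test, n = 3 and 2), the smallest possible. These are summed lengths, so long segments weigh most, and single segments could differ. The H3K4me3 difference in the brainstem-only length came largely from a single long segment, whose genes are not reported here. Many other brainstem-only segments, such as the 20.7 kb in *Sntb2*, held 0% H3K4me3 in every control. In the telencephalon-only segment at *Irx3*, H3K4me3 covered 0.688%, 37% and 37.1% in the telencephalon and 5.67% and 3.01% in the brainstem. Where segments were chosen without brainstem 61, the K27M difference in the brainstem-only length shrank from -31.8 to -2.47 points, and where they were chosen without telencephalon 59, that in the telencephalon-only length from 38.4 to 11.3 points. The difference in H3K4me3 inside telencephalon-only segments shrank as well, from -9.10 to -1.58 points without telencephalon 59 (to -2.15 without brainstem 59, -4.28 without brainstem 61 and -5.68 without telencephalon 61). That in H3K4me3 inside brainstem-only segments went from 2.98 to 0.304 points without brainstem 61, 0.911 without brainstem 59 and 1.34 without telencephalon 61. The control H3K4me3 lists covered 27.8 Mb in telencephalon 59, the narrowest, and 37 to 43.6 Mb in the other 4.

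**Figure D5:**
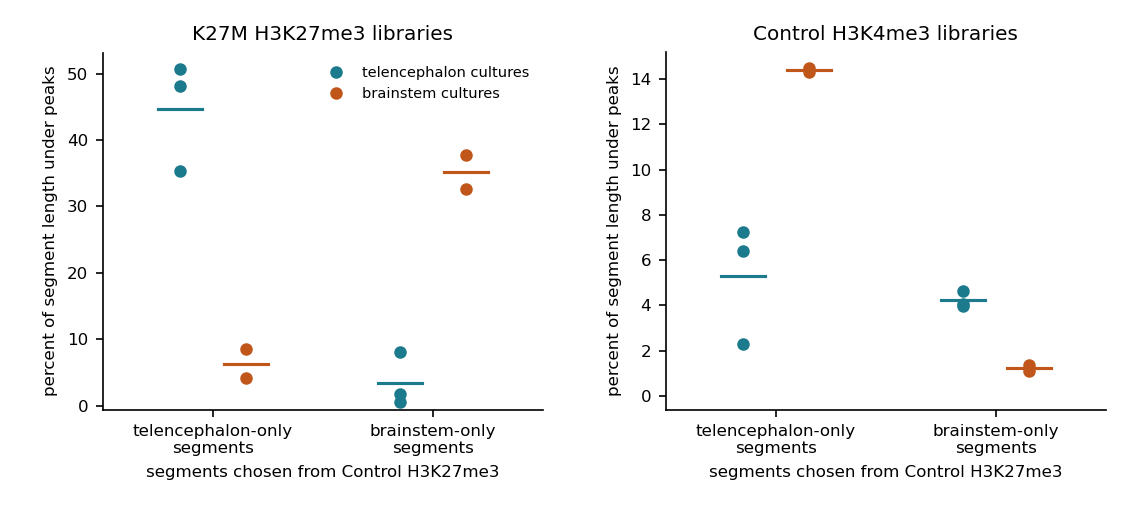
Share of the telencephalon-only and brainstem-only segment length under K27M H3K27me3 peaks (left) and control H3K4me3 peaks (right), in percent (y axis), for each culture (points; teal telencephalon, orange brainstem; lines, means). K27M H3K27me3 is higher in the region in which the controls carry H3K27me3, and H3K4me3 is higher in the other region.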

How the data were processed

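H3K27me3 and H3K4me3 ChIP-seq peak lists of day 0 OPC cultures were used. Per the labels and the study's methods, the authors mapped reads with BWA (0.7.17-r1188) to mm10, discarded those in blacklisted regions and ran MACS2 (2.2.7.1) on single libraries, without pooling replicates. Each deposited peak carries its enrichment over input, a ratio, and a p-value and q-value as −log10. No read counts were used, so depth per library was not measured here and signal below the peak threshold is unknown. Intervals were merged and compared in Python 3.11.15 with numpy 2.4.6, on GENCODE M21 promoters (GRCm38). Of 464447 autosomal peaks, 0 extended past a chromosome end. Groups were compared with exact permutation tests over 10 divisions. Where nothing says that cultures came from separate litters, p-values measure only the spread between these samples. K27M H3K4me3 lists (5) were not used. Scripts were tested on simulated data. Some genes that enter the counts are not reported here. Alternatives were stricter peaks, equal peak numbers, other promoters, overlaps and gene sets, and cultures left out. The genes and lists were chosen with earlier results of these data known. Named were list genes that were region-only, the 10 other region-only genes with the longest domains in each direction, genes in the 10 longest segments, *Hox* genes and tallies of markers. *Nr2e1*, *Emx2*, *Otx1*, *Nkx6-2*, *Meis1*, *Pax3*, *Zic1*, *Irx4*, *Irx6* and the genes counted as marked in K27M cultures were named after their values were seen.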

Additional observations from a re-analysis of the deposited data

How the results depend on the processing

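Of 232 recomputed main values, 180 were classed as unchanged, 41 moved and 11 changed sign. Only counts and summed lengths were judged by size. Differences were judged by sign alone, so those that shrank strongly are among the 180. Of 988 recomputed values for named genes, 65 fell short of their call, 9 gained one and 0 changed sign. The log2 difference in covered length (-0.27) was 0.04 with chromosomes X and Y and ran from -0.80 to 0.31 with a culture left out, turning positive without telencephalon 59 (0.31) or brainstem 59 (0.26). The telencephalon-only genes (17) numbered 11 at −log10 q of at least 3, 7 at a fold of at least 3, 52 over all annotated genes, 217 where 2 libraries of the marked region were enough, and 21 to 202 with a culture left out. The brainstem-only genes (59) numbered 25 at that q, 35 with promoters of 500 bp on either side, 32 with an overlap of at least 500 bp, 115 over all annotated genes, and 60 to 786 with a culture left out. The telencephalon-only segments (0.478 Mb) summed to 0.245 Mb at 5000 bp or more, 0.254 Mb unjoined and 0.512 to 2.49 Mb with a culture left out. The brainstem-only segments (0.932 Mb) summed to 0.323, 0.358 and 0.969 to 14.8 Mb. Longer domains in the telencephalon (17) numbered 28 with equal peak numbers, 36 with a gap of 2 kb, 10 with a gap of 10 kb and 17 to 120 with a culture left out. Those in the brainstem (44) numbered 82, 22 and 44 to 554 for the gaps of 2 and 10 kb and the cultures left out. Leaving out a culture loosens the rule for all of these counts.

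H3K4me3 at telencephalon-only genes (0.980 points) was -3.03 at the stricter q, -23.8 at the stricter fold, -1.85 with short promoters, -5.13 with the longer overlap, -8.97 over all annotated genes and -1.96 to 3.92 with a culture left out, the lowest without brainstem 61 H3K4me3 (-1.96). At brainstem-only genes (1.98 points) it was -5.07 at the stricter fold and -0.565 to 4.52 with a culture left out, the lowest without brainstem 61 H3K4me3 (-0.565). The cause was not tested. K27M H3K27me3 kept its direction under all alternatives run, from 4.69 to 76.2 points at telencephalon-only genes and from -28 to -1.06 at brainstem-only genes. Using cultures 59 and 61 alone as a replicate block gave 94 brainstem-only genes, 1.59 Mb of brainstem-only segments, 21 telencephalon-only genes and a covered-length difference of -0.42. With 2 cultures per region in that block, deviations from the region means mirror each other, so their correlation (r = -0.580 for promoter coverage over genes) is a single value and does not show whether equal numbers mark a pair. The labels do not say it either. Depth was not measured here. In the read totals that the study's reporting summary gives per library, telencephalon 59, the narrowest list, stood highest among the control H3K27me3 libraries. How depth bears on the calls was not tested. Weak domains below the peak threshold cannot be seen in the narrower lists.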
